A study of Sus scrofa with 24 samples.

Results

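Liver RNAseq libraries of 11 pigs were compared, 5 from pigs treated with Myodin (castrated boars 8 and 9, sows 10, 11 and 12) and 6 from pigs without treatment (castrated boars 13, 14 and 15, sows 16, 17 and 18), out of 24 libraries in the series. The animals were chosen by treatment and label, as the pigs without functioning testes, and the 5 uncastrated boars with Myodin or no treatment enter no fold change given for them. All 24 libraries share the estimate of spread behind the p-values, unless a fit of the 11 libraries alone is named. All were commercial hybrids of Large White, Landrace and Duroc, with 1 library per pig, and numbers are those of the animals in the labels. Myodin had been injected into the muscle at 5 mg/kg b.w. in repeated applications before slaughter. Sustanon, the other preparation of the trial, was given at 4 mg/kg b.w. to 6 castrated boars and sows. Each treatment group had pens of its own and the controls a room of their own, so housing and treatment cannot be told apart.

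Myodin is a preparation of nandrolone, an analogue of testosterone with anabolic activity, given as a synthetic ester. Steroid hormones act through receptors that are transcription factors activated by their ligand. The liver breaks steroids down, first through hydroxysteroid dehydrogenases and cytochrome P450 enzymes and then by conjugation to sulphate or glucuronic acid, and it holds most of the enzymes of amino acid breakdown and of the urea cycle. Castrated males and sows offer a background low in testicular androgen, and the comparison asked which liver transcripts differ when nandrolone is added to it.

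Libraries held 9628538 to 14017276 counts with Myodin (median 11717175) and 9492860 to 13692975 without treatment (median 9893916.5). Hepatocyte markers dominated all libraries (7 tested markers, none at 0, with a summed level of 144000 to 196700 CPM with Myodin and 124600 to 233000 CPM without treatment), and markers of skeletal muscle and pancreas did not pass the filter on low counts. The labelled sex was checked with KDM5D, a gene of the Y chromosome. It had 68 and 44 counts in the Myodin castrated boars and 0 counts in the 3 Myodin sows. Among the controls it went against the label in 3 libraries, with 0 counts in the library labelled castrated boar 15, 35 in the library labelled sow 16 and 95 in the library labelled sow 18. Controls 13 and 14 had 54 and 36 counts and control 17 had 0, as labelled. KDM5D checks only the labelled sex. A number of the genes named below are given with and without libraries 15, 16 and 18, and a difference between the labelled sexes has to be read with it.

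Few genes separated the groups after adjustment. Of 8159 tested genes, 7 had an adjusted p under 0.05 by edgeR (0.0858%), 5 higher (0.0613%) and 2 lower (0.0245%) with Myodin, and 2 of these, PTPMT1 and MAPK4, also had a log2 fold change of at least 1 in size and were counted as DEGs (0.0245%). At an unadjusted p under 0.05 there were 843 genes (10.3%), 427 higher (5.23%) and 416 lower (5.1%), and the median log2 fold change of all tested genes was 3e-04. In 152 genes (1.86%) the CPM of the 5 treated and 6 untreated pigs did not overlap, 77 of them higher (0.944%) and 75 lower (0.919%) with Myodin. DESeq2 on the same groups gave 68 genes with an adjusted p under 0.05 and 25 DEGs, and edgeR on the 11 libraries alone gave 15 and 9.

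**Figure D1:**
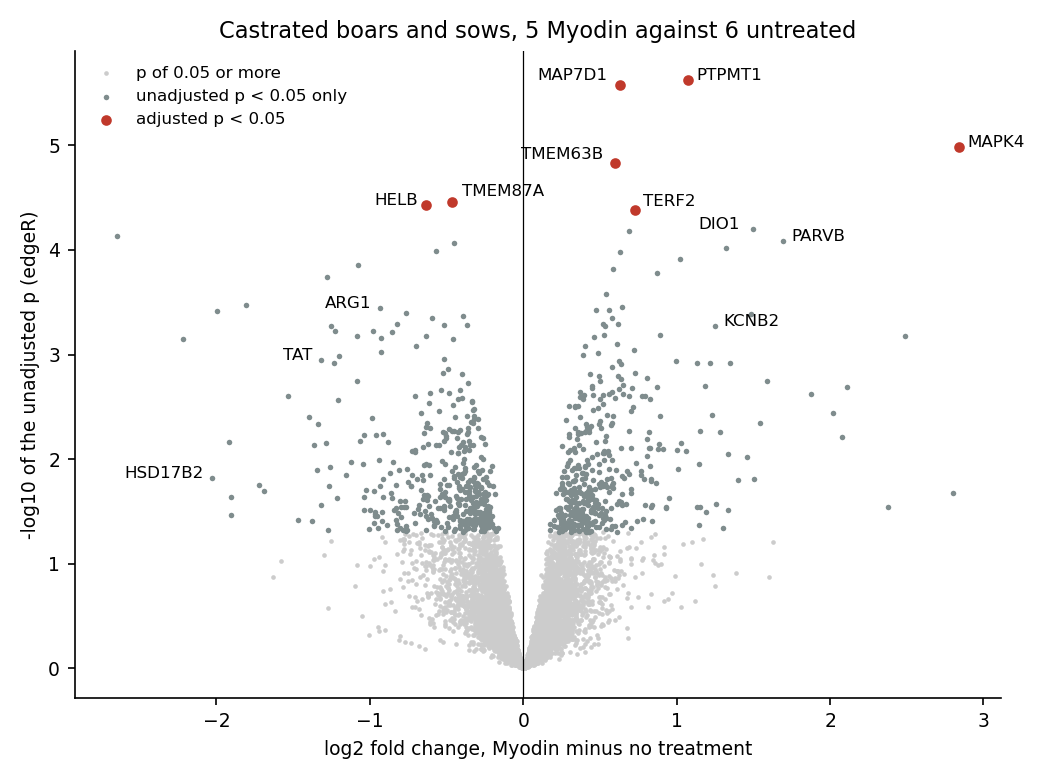
Each point is a tested gene, with the log2 fold change of Myodin against no treatment on the x axis and -log10 of the unadjusted p by edgeR on the y axis. The 7 genes in red have an adjusted p under 0.05. HSD17B2 and TAT lie among the larger negative changes but lower on the p axis.

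The count of called genes rested on single libraries, treated and untreated. Without libraries 15, 16 and 18 no gene had an adjusted p under 0.05 by edgeR (smallest 0.329, 491 genes at an unadjusted p under 0.05), and without library 15 alone (smallest 0.0515, 718 genes) or sow 17 alone (smallest 0.0528, 803 genes) there was also none. The 7 called genes became 2 without Myodin sow 10 or control 13, 3 without Myodin sow 11 and 15 without Myodin sow 12. Without any other single pig they numbered 5 to 9. DEGs numbered 1 without sow 10, castrated boar 13 or castrated boar 14, 3 without sow 16, 4 without sow 18 and 7 without sow 12. Since the groups did not overlap in the 7 called genes, leaving out controls could not turn their direction.

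PTPMT1, a mitochondrial phosphatase needed for the synthesis of cardiolipin (chr2:15044432-15052815, Sscrofa11.1), stood at 53.0, 45.4, 45.6, 39.9 and 36.3 CPM in Myodin pigs 8 to 12. The controls 13 to 18 stood at 20.8, 20.7, 18.9, 19.7, 21.5 and 23.7 CPM. All treated pigs were above all controls, with a mean of 44.0 ± 6.34 CPM (SD, n = 5) in treated pigs and 20.9 ± 1.67 CPM (SD, n = 6) in untreated pigs. The log2 fold change was 1.07 (SE 0.17, adjusted p by edgeR 0.0107), and 1.07 without libraries 15, 16 and 18.

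MAPK4, an atypical member of the mitogen-activated protein kinases (chr1:100107429-100291594), had the highest fold change of the 7 genes but few reads. It had 22, 22, 15, 17 and 18 counts in Myodin pigs 8 to 12 and 2, 1, 2, 4, 3 and 2 counts in controls 13 to 18, that is 1.65 ± 0.17 CPM (SD, n = 5) with Myodin and 0.22 ± 0.097 CPM (SD, n = 6) without. MAPK4 passed the filter on low counts through the treated pigs alone, so its place among the tested genes depended on its level there. Without the filter its adjusted p by edgeR was 0.0208. The groups were far apart, and the highest control, sow 16, was well below the lowest treated pig. The log2 fold change was 2.84 (SE 0.50, adjusted p by edgeR 0.0282), and 3.12 without libraries 15, 16 and 18. KDM5D-positive libraries 16 and 18 had 4 and 2 MAPK4 counts, and the uncastrated untreated boars had 135 and 70 counts. The origin of libraries 16 and 18 was not tested.

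TERF2, a protein of the shelterin complex that binds telomere repeats (chr6:17605748-17631795), stood at 70.3, 108.7, 80.5, 86.3 and 75.3 CPM in Myodin pigs 8 to 12. In controls 13 to 18 it stood at 50.1, 54.3, 56.9, 49.0, 48.1 and 46.9 CPM. The highest control was below the lowest treated pig, and the log2 fold change was 0.73 (SE 0.14, adjusted p by edgeR 0.0483), and 0.73 without libraries 15, 16 and 18.

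MAPK4 and TERF2 belong to the study's panel of 16 transcripts followed by Real-Time PCR, as does KCNB2, a voltage-gated potassium channel described further down. The primers of the study for these 3 transcripts are shown because they name the part of each transcript that was followed, all 5′ to 3′ in lower case.
MAPK4, first primer: accttggtgggcgtttca
MAPK4, second primer: agcccattgacgccaaag
TERF2, first primer: ggatgatgcagagccctacct
TERF2, second primer: agtggaggactcagatttcaaagc
KCNB2, first primer: ggtgtgcgacgactacaatctg
KCNB2, second primer: tcccggatggcgatca

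MAP7D1, which belongs to a family of microtubule-associated proteins (chr6:92297992-92322694), had 114, 161, 129, 112 and 134 CPM with Myodin against 87.9, 82.1, 77.2, 98.5, 75.5 and 81.9 CPM without. Its log2 fold change was 0.63 (SE 0.10, adjusted p by edgeR 0.0107). TMEM63B, a mechanically gated cation channel (chr7:39137684-39165093), had 138, 144, 174, 165 and 145 CPM against 108, 112, 88.4, 125, 90.6 and 83.3 CPM, a log2 fold change of 0.60 (SE 0.11, adjusted p by edgeR 0.0304). The other 2 called genes were lower with Myodin. TMEM87A, a membrane protein of the Golgi (chr1:129098388-129142168), had 48.9, 51.6, 58.1, 56.9 and 54.1 CPM with Myodin against 72.0, 61.3, 72.6, 74.5, 88.3 and 78.2 CPM. Its log2 fold change was -0.47 (SE 0.091, adjusted p by edgeR 0.0483). HELB, a DNA helicase (chr5:30645378-30696488), had 10.8, 13.7, 10.9, 9.50 and 12.6 CPM against 16.6, 14.5, 19.6, 22.4, 18.5 and 15.6 CPM, a log2 fold change of -0.63 (SE 0.12, adjusted p by edgeR 0.0483). Without libraries 15, 16 and 18 the log2 fold changes were 0.67 for MAP7D1, 0.57 for TMEM63B, -0.46 for TMEM87A and -0.52 for HELB. In none of these 4 genes did a treated pig enter the range of the controls. Of the 19 other settings tried, PTPMT1 stayed under an adjusted p of 0.05 in 15, MAP7D1 in 13, MAPK4 in 11, TMEM63B in 9, HELB in 6, TERF2 in 5 and TMEM87A in 3.

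**Figure D2:**
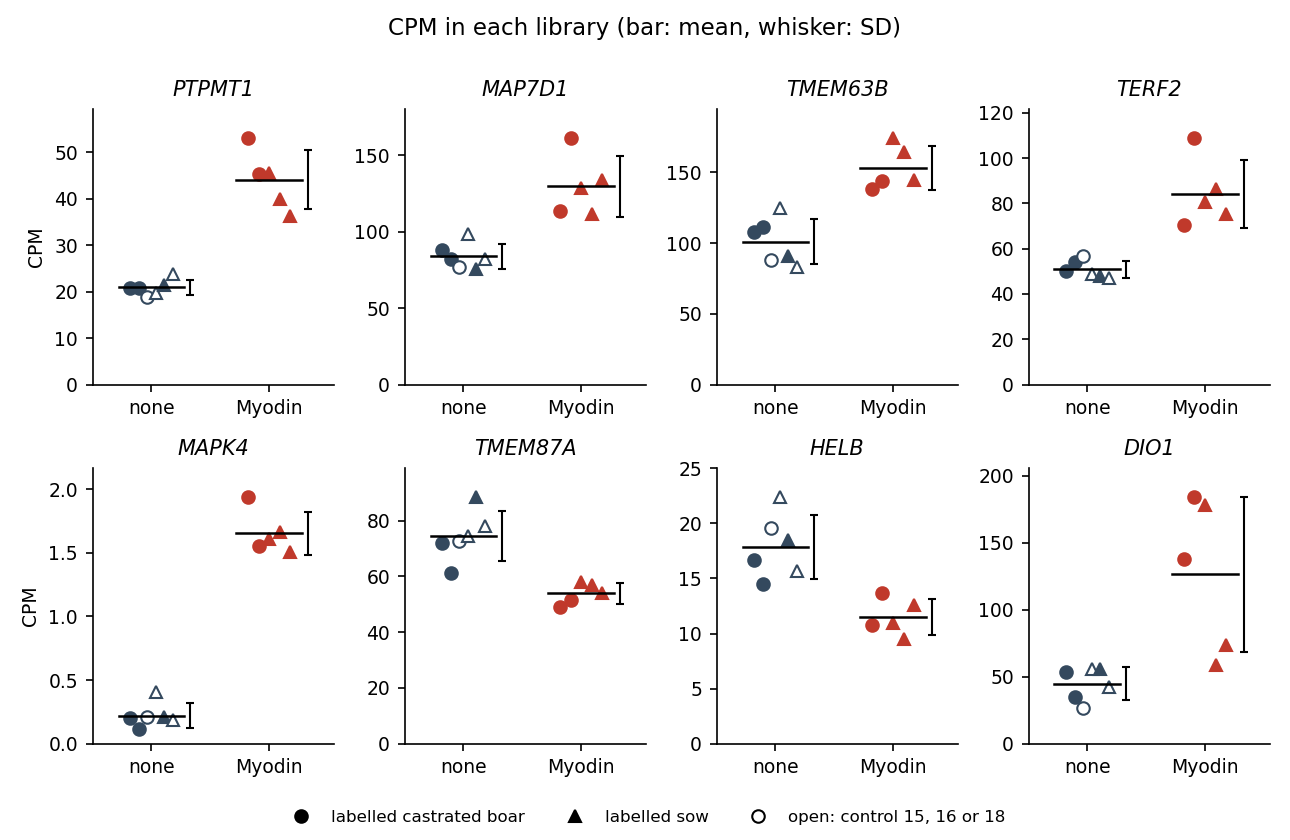
CPM of the 7 genes with an adjusted p under 0.05 and of DIO1 in each library, with no treatment on the left and Myodin on the right of each panel, the mean as a bar and the SD as a whisker. Open symbols are controls 15, 16 and 18, of which sow 16 is the highest control for MAP7D1, TMEM63B, MAPK4 and HELB, and in all 8 panels treated and untreated pigs are separate.

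Close behind, without passing the adjustment by edgeR, stood DIO1, the enzyme that converts thyroxine to active thyroid hormone (chr6:158376744-158392745). It had 138, 184, 178, 58.5 and 73.9 CPM in Myodin pigs 8 to 12 against 53.7, 34.7, 26.3, 56.0, 55.9 and 42.0 CPM in the controls. Sows 11 and 12 were just above the controls and the other 3 treated pigs were far above them, and the log2 fold change was 1.495 (SE 0.305, adjusted p by edgeR 0.0566), and 1.39 without libraries 15, 16 and 18. Leaving out sow 11 or sow 12 brought it to 1.68 (adjusted p 0.0275) and 1.64 (adjusted p 0.031). PARVB, an adaptor of integrin adhesions, had a log2 fold change of 1.70 (8.82 ± 2.74 against 2.72 ± 1.17 CPM, adjusted p 0.0566). SPG21 (0.69, adjusted p 0.0566), the palmitoyl transferase ZDHHC14 (0.63, adjusted p 0.0566), the peroxisomal import receptor PEX5 (0.59, adjusted p 0.0692), RCCD1 (0.87, adjusted p 0.0715), C1orf210 (0.54, adjusted p 0.103) and the ceramide kinase CERK (0.65, adjusted p 0.11) followed. On the other side stood ZNF567 (-1.08, adjusted p 0.0663), CFAP100 (-1.81, adjusted p 0.11), DISP3 (-1.996, adjusted p 0.11), CLHC1 (-0.76, adjusted p 0.11), PUS10 (-0.40, adjusted p 0.11) and CDKN3 (-0.59, adjusted p 0.11). CPM did not overlap between the groups in any of these 14 genes except ZDHHC14, RCCD1 and CLHC1. DESeq2 gave all 14 an adjusted p under 0.05, from 0.000708 for DIO1 to 0.025 for CDKN3, and 0.00152 for PARVB. All 14 were picked for a small p on these same counts. Their lack of overlap (1.86% over all tested genes) and DESeq2's calls are therefore not separate evidence. DISP3 had 5, 11, 7, 15 and 25 counts in Myodin pigs 8 to 12 and 30 to 68 in the controls. Its place among the tested genes thus depended on its level in the controls.

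Several enzymes of amino acid breakdown had lower levels with Myodin, though none passed the adjustment by edgeR in the fit of 24 libraries. DESeq2 called DBT (adjusted p 0.00193), ARG1 (0.00704) and TAT (0.0172), and limma called ARG1 (0.0164) and TAT (0.028). Of 27 tested genes of the list, 6 were lower and 1 was higher at an unadjusted p under 0.05 (against 5.1% lower and 5.23% higher over all tested genes), 3 were lower without overlap (0.919%), none had an adjusted p under 0.05 by edgeR, and the median log2 fold change was -0.19. The lower genes included enzymes that act on tyrosine, branched-chain amino acids, arginine and cysteine, and an amino acid carrier.

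TAT, which opens the breakdown of tyrosine, had 491, 649.9, 647, 498 and 1089 CPM against 1281, 1369, 2513, 2452, 1404 and 1073 CPM, and sow 12 overlapped with control 18 (log2 fold change -1.32, SE 0.35, adjusted p by edgeR 0.146).

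ARG1, the arginase that releases urea in hepatocytes (chr1:32006035-32028983), had 979, 957, 843, 628 and 699 CPM with Myodin. In controls 13 to 18 it had 1435, 1530, 2190, 1672, 1367 and 1225 CPM. The groups were separate (log2 fold change -0.94, SE 0.22, adjusted p by edgeR 0.11). ARG2, the mitochondrial arginase, which was not on a list and was picked after its values were seen (chr7:91343987-91385911), had 13.4, 19.5, 18.7, 16.8 and 14.6 CPM against 32.9, 41.3, 40.4, 27.8, 39.6 and 29.1 CPM (log2 fold change -1.08, SE 0.31, adjusted p by edgeR 0.18). In the fit of the 11 libraries alone the adjusted p by edgeR was 0.0477 for ARG1 and 0.00866 for ARG2, and DESeq2 gave 0.0409 for ARG2. DBT, a subunit of the complex that oxidises branched-chain keto acids, stood at 87.1 ± 6.60 CPM (SD, n = 5) in treated pigs and 119 ± 10.2 CPM (SD, n = 6) in untreated pigs, without overlap (log2 fold change -0.45, adjusted p by edgeR 0.0566). SLC38A2, a carrier of neutral amino acids, and CTH, which makes cysteine from cystathionine, had log2 fold changes of -0.92 and -0.70 (both fall outside the rule for named genes). The higher member was SLC1A4, another carrier of neutral amino acids, with 17.2, 28.9, 42.8, 70.9 and 26.5 CPM against 15.7 to 24.9 CPM (log2 fold change 0.998, adjusted p by edgeR 0.146 and by DESeq2 0.0388). Without libraries 15, 16 and 18 the log2 fold changes were -1.002 for TAT, -0.82 for ARG1 and -0.46 for DBT.

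**Figure D3:**
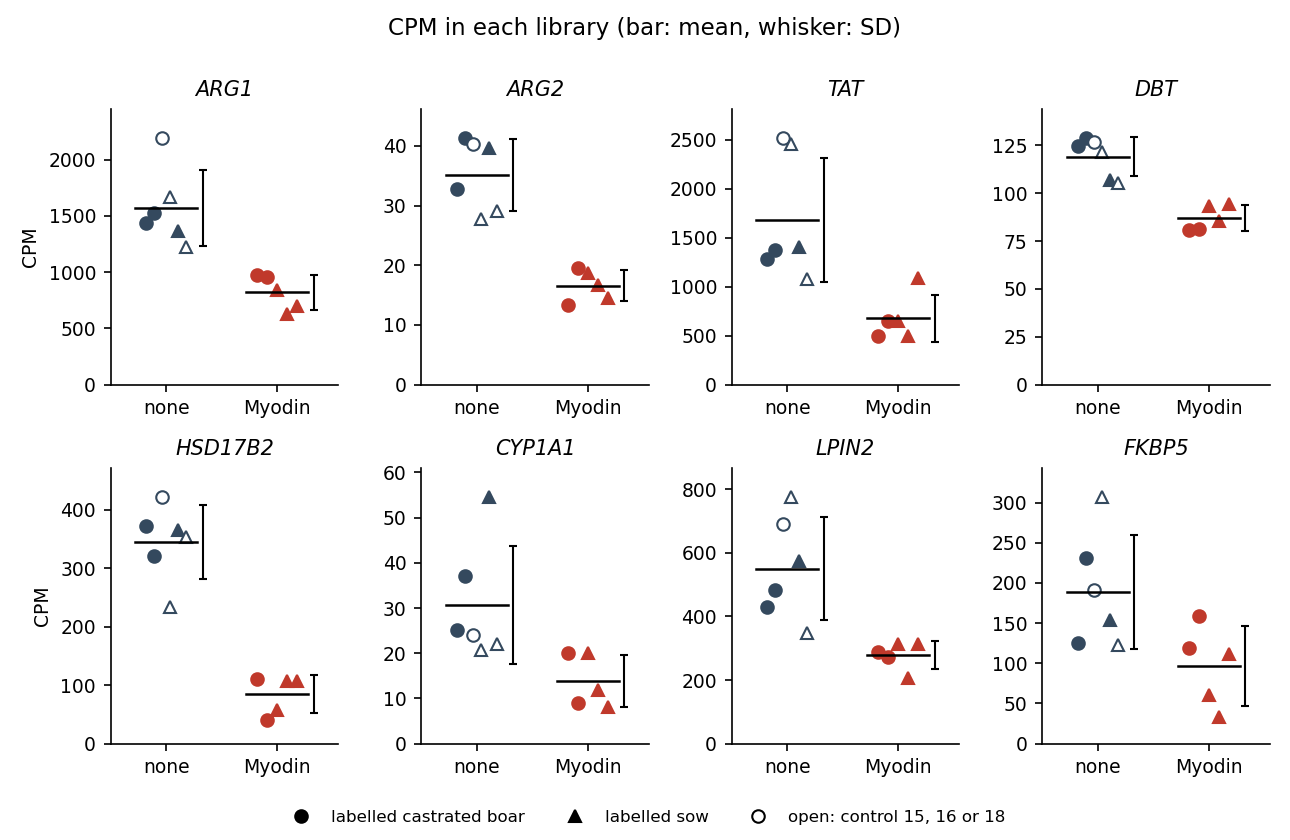
CPM in each library of 4 genes of amino acid breakdown (ARG1, ARG2, TAT, DBT), of the steroid dehydrogenase HSD17B2, of CYP1A1, of LPIN2 and of FKBP5, with the mean as a bar and the SD as a whisker. HSD17B2 lies between 40.2 and 109.7 CPM with Myodin and between 234 and 421 CPM without, while FKBP5 overlaps between the groups.

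Of the genes that handle steroids, HSD17B2 stood apart. Its enzyme oxidises testosterone and estradiol to their less active keto forms (chr6:6296429-6360434). It had 109.7, 40.2, 58.2, 107 and 107 CPM in Myodin pigs 8 to 12 against 372, 320.3, 421, 234, 365 and 354 CPM in controls 13 to 18. The highest treated pig was well below the lowest control, sow 16. The log2 fold change was -2.03 (SE 0.77), and -2.06 without libraries 15, 16 and 18. The adjusted p by edgeR was 0.362 in the single fit of 24 libraries and 0.00482 in the fit of the 11 libraries alone. It was 0.0155 by edgeR with labelled sex as a covariate, 0.00918 by limma and 0.276 by DESeq2. In uncastrated boars the gene ranged from 1.22 to 119 CPM with Myodin and from 3.74 to 28.8 CPM without. In castrated boars and sows with Sustanon it ranged from 2.71 to 35.3 CPM. All these libraries share the estimate of spread in the fit of 24, and their part in its adjusted p was not tested. The other 11 tested steroid dehydrogenases and reductases did not reach an unadjusted p of 0.05, and the list's median was 0.042.

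In the list of cytochrome P450 and flavin-containing monooxygenase genes, 4 of 15 tested were lower and 0 higher at an unadjusted p under 0.05 (5.1% lower and 5.23% higher over all tested genes), with a median of -0.35 and 13 of 15 below 0. CYP1A1, which oxidises aromatic compounds, had 19.97, 8.96, 20.02, 11.95 and 8.20 CPM against 25.1, 37.1, 24.1, 20.8, 54.5 and 22.1 CPM, without overlap (log2 fold change -1.15, adjusted p by edgeR 0.355). CYB5A, an electron donor to P450 enzymes, and FMO5, a flavin-containing monooxygenase, had log2 fold changes of -0.41 and -0.67. In the list of conjugation enzymes 0 of 9 tested genes reached an unadjusted p of 0.05 and the median was -0.28. SULT2A1, a steroid sulphotransferase, stood at 1162 ± 299 CPM (SD, n = 5) with Myodin and 1759 ± 482 CPM (SD, n = 6) without, and GSTA1, a glutathione transferase, at 1785 ± 302 CPM against 1965 ± 482 CPM.

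Of 18 tested steroid receptors and partners, 4 were lower and 0 higher at an unadjusted p under 0.05 (background 5.1% lower and 5.23% higher), with a median of -0.23. ESR1, the estrogen receptor, was 1 of them (10.2 ± 1.61 against 14.4 ± 4.28 CPM, log2 fold change -0.49, adjusted p by edgeR 0.401). The other 3 are known as genes that glucocorticoids induce, but which hormone their levels follow here was not tested. ZBTB16, a transcriptional repressor, had 10.3, 30.6, 12.7, 4.90 and 13.98 CPM against 16.6, 60.6, 45.5, 93.0, 21.7 and 17.04 CPM (log2 fold change -1.53, adjusted p by edgeR 0.188). FKBP5, a chaperone partner of steroid receptors, had 119, 158, 60.2, 32.7 and 112 CPM against 126, 231, 191, 306, 154 and 123 CPM (-0.96, adjusted p by edgeR 0.251). TSC22D3, also called GILZ, had a log2 fold change of -0.94 (68.8 ± 27.1 against 132 ± 40.4 CPM). In each of these 3 genes control 16 was the highest library, and groups overlapped. NR3C1, the glucocorticoid receptor, had 58.1 ± 3.98 CPM with Myodin and 56.6 ± 5.66 CPM without (log2 fold change 0.038, SE 0.11). SHBG and PGR were not among the genes tested.

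Of 17 tested liver nuclear receptors and factors, 1 was higher and 1 lower at an unadjusted p under 0.05. This was 11.8% of the list, near the 10.3% over all tested genes, and the list's median was 0.21. The higher gene was NR1H3, the oxysterol receptor LXR alpha (0.28). In the circadian list 3 of 13 were lower at an unadjusted p under 0.05 (5.1% over all tested genes), among them CIART (17.8 ± 7.35 against 42.5 ± 19.3 CPM, log2 fold change -1.25, adjusted p by edgeR 0.11 and by DESeq2 0.0106) and TSC22D3. None of 6 tested genes of the growth hormone and IGF axis was under it, with IGF2R at -0.011 and IGFALS, which carries IGF in the blood, at 0.15.

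In fat metabolism, values went both ways. In the list of fatty acid oxidation (22 tested), 2 genes were higher and 2 lower at an unadjusted p under 0.05 (5.23% and 5.1% over all tested genes) and the median was 0.10. FABP1, the liver fatty acid binding protein, had 1198, 2242, 1332, 505 and 529.8 CPM against 284.5 to 814 CPM, so that sows 11 and 12 lay within the controls and the other 3 above them (log2 fold change 1.15, adjusted p by edgeR 0.247). PDK4, which holds back the entry of pyruvate into oxidation, stood at 416 ± 103 against 766 ± 248 CPM (-0.88), CD36 at -0.48 and ECI2 at 0.20. Of 20 tested genes of fatty acid and triglyceride synthesis, 3 were higher (background 5.23%) and 1 lower (background 5.1%) at an unadjusted p under 0.05, with a median of 0.060. LPIN2, a phosphatidate phosphatase, had 289, 271, 312, 207 and 312 CPM against 429.5, 484, 689, 774, 575 and 347 CPM, without overlap (-0.98, SE 0.25, adjusted p by edgeR 0.112 and by DESeq2 0.0148, and -0.84 without libraries 15, 16 and 18). FADS1 (1.19), ELOVL6 (0.54) and MLXIPL (0.47), a desaturase, an elongase and the carbohydrate response factor ChREBP, were the higher members. SOAT2, which esterifies cholesterol, was the member of 20 cholesterol genes under an unadjusted p of 0.05, with 36.0 ± 7.02 against 19.6 ± 4.99 CPM and no overlap (0.88, adjusted p by edgeR 0.279). The sterol exporter ABCG5 (0.47, and 0.27 without Myodin sow 10) was the 1 of 13 bile acid and sterol transport genes. ANGPTL8 (-0.84) was the 1 of 16 lipoprotein genes. Each of these last 3 lists had 1 gene under an unadjusted p of 0.05, a share below the background of 10.3%.

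Among 16 genes of glucose and glycogen metabolism, GYS2, the liver glycogen synthase, stood at 1233 ± 397 against 787 ± 151 CPM (log2 fold change 0.65, adjusted p by edgeR 0.188). With LDHA (0.38) 2 genes were higher (background 5.23%), and 1, the glucose 6-phosphate carrier SLC37A4 (-0.45), was lower (background 5.1%) at an unadjusted p under 0.05, and the list's median was 0.12.

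Genes of interferon response and antigen processing mostly had lower values with Myodin, but the controls were uneven. Of 23 tested, 21 had a negative log2 fold change (the median was -0.45), 4 were lower at an unadjusted p under 0.05 (5.1% over all tested genes), and the groups overlapped in all. ISG15, a ubiquitin-like antiviral protein, had 129.6, 46.8, 15.1, 12.5 and 37.0 CPM with Myodin. Controls 13 to 18 had 399.5, 11.9, 38.7, 59.8, 53.9 and 524 CPM. Controls 13 and 18 stood far above the other 4, which were within or close to the treated range (log2 fold change -1.91, SE 0.85, adjusted p by edgeR 0.433). RSAD2 was also highest in controls 13 and 18, at 130.4 and 82.1 CPM, against 7.47 to 37.4 CPM in the other controls and 6.76 to 35.5 CPM with Myodin (-1.72). IFITM3 (-1.27) and IFI6 (-1.47) had their highest 2 values in the same libraries.

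Of the proteins that the liver secretes, TTR (log2 fold change -0.43) and SERPINA1 (-0.34) were lower at an unadjusted p under 0.05 (5.1% over all tested genes) among 11 acute-phase genes (median -0.11), and 0 of 16 coagulation and complement genes were under it (median -0.15, C3 at -0.21 and PLG at -0.051). None of 15 iron genes was (median -0.078, HPX at -0.18 and FTL at -0.17), and none of 19 genes of endoplasmic reticulum stress and folding (median 0.084, HSP90B1 at 0.20 and CALR at 0.35) or of 14 cell division genes (median -0.082, CCND1 at -0.36 and RRM1 at -0.11).

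Genes of oxidative phosphorylation and of the ribosome showed small differences with the same sign. Of 26 tested genes of oxidative phosphorylation, 25 had a positive log2 fold change, with a median of 0.17 and 1 under an unadjusted p of 0.05 (3.85%, against 10.3% over all tested genes). That gene was ATP5F1D, a subunit of the ATP synthase, at 120.1 ± 10.9 against 88.1 ± 15.6 CPM, without overlap (0.45). Of 28 cytoplasmic ribosomal protein genes, 26 had a positive log2 fold change, with a median of 0.12, and 3 were under an unadjusted p of 0.05 (10.7%, near the background of 10.3%), RPS12 (0.34), RPS23 (0.25) and RPLP2 (0.26). Genes of the same complex are not independent of each other. Over all tested genes the quartiles of the log2 fold change were -0.14 and 0.15. Of 15 antioxidant genes, GPX4 (179.5 ± 16.2 against 146 ± 9.93 CPM, log2 fold change 0.30, no overlap), GCLC (0.60) and PRDX1 (0.42) were higher at an unadjusted p under 0.05 (5.23% over all tested genes). None was lower at this p, while 8 of the 15 had a negative log2 fold change and the median was -0.037.

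**Figure D4:**
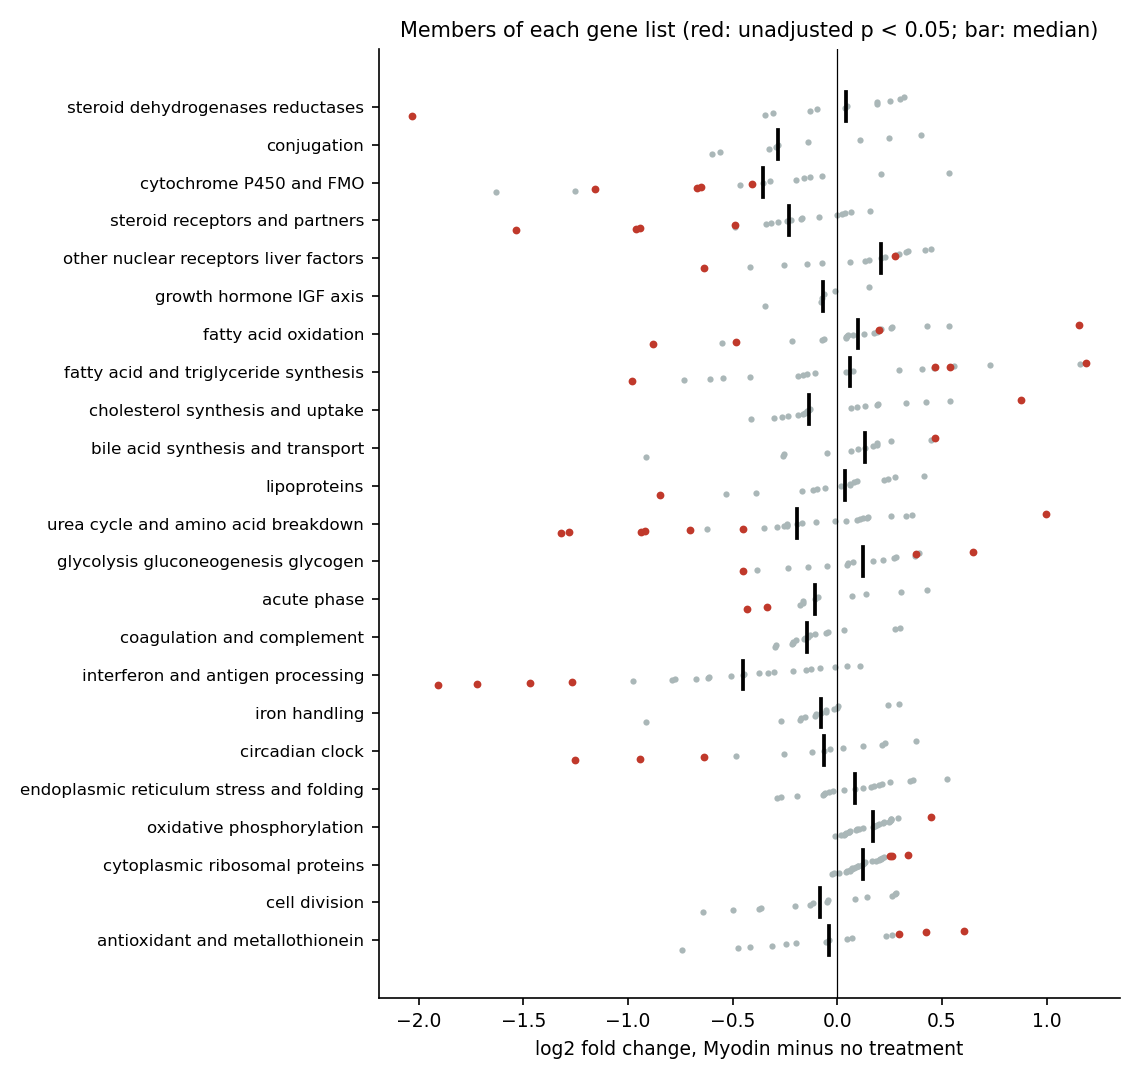
Each point is a tested member of a list of pathway genes (cell type markers are not drawn), placed by its log2 fold change of Myodin against no treatment, in red at an unadjusted p under 0.05, and the black bar is the list's median. Among the lists drawn, that of interferon and antigen processing has the lowest median, -0.45, and the lists of oxidative phosphorylation and ribosomal proteins lie close to 0 with nearly all members to its right.

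The markers of other liver cells named here were picked after their values were seen. All 6 tested markers of Kupffer cells, the resident macrophages, had a positive log2 fold change (median 0.32), and 3 were higher at an unadjusted p under 0.05 (5.23% over all tested genes), C1QC (0.33), C1QB (0.33) and CSF1R (0.36). The summed level of the list was 1069 to 1622 CPM with Myodin and 803 to 1242 CPM without, and none of its listed genes in the table was at 0. Bile duct markers had lower values, with summed levels of 17.6 to 23.6 CPM against 25.5 to 38.1 CPM that did not overlap (3 tested, median log2 fold change -0.58, KRT7 at -0.62). Of the 7 hepatocyte markers, TTR and SERPINA1 were lower at an unadjusted p under 0.05 (5.1% over all tested genes), with a median of -0.16, and the summed levels of the list overlapped between the groups. In bulk liver, fewer cells of a type and less RNA per cell cannot be told apart. Of 7 T and NK cell markers 5 had a negative log2 fold change (median -0.046), and 1, CD4 (0.29), was higher at an unadjusted p under 0.05. No gene of the lists of B and plasma cells, endothelium, stellate cells, red blood cells, neutrophils and fat was under this p. Their part in the results above was not tested.

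The panel of 16 genes was chosen by the study on these samples for how it separated Sustanon-treated pigs, so it is not independent evidence. With Myodin 11 of the 13 tested members had a positive log2 fold change, 8 were higher and 0 lower at an unadjusted p under 0.05 (5.23% and 5.1% over all tested genes), 2 (MAPK4 and TERF2) had an adjusted p under 0.05 by edgeR (0.0858%) and 4 were higher without overlap (0.944%). The median was 0.42. KCNB2 (chr4:62877838-63306314) had 4.49, 5.29, 4.18, 3.33 and 4.77 CPM in Myodin pigs 8 to 12 against 1.40, 1.81, 2.32, 2.62, 1.96 and 1.02 CPM in the controls. All treated pigs were above all controls (log2 fold change 1.25, SE 0.31, adjusted p by edgeR 0.11 and by DESeq2 0.0207, and 1.35 without libraries 15, 16 and 18). DHRS4, a short-chain dehydrogenase that reduces retinal and other carbonyls, was without overlap as well, with 942, 1284, 545.5, 756 and 711 CPM against 507.5, 489, 369, 520.4, 512 and 489 CPM (0.82, SE 0.27, adjusted p by edgeR 0.247, and 0.75 without libraries 15, 16 and 18). ITPR3 (0.70), PPL (0.57), DHDH (0.42) and B3GNT8 (0.42) were the other members higher at an unadjusted p under 0.05. ASB4 (0.13), CACNA1H (0.15), TINAG (0.050), DUOX1 (-0.94) and PLB1 (-0.59) were not under it. PLB1 was at 0.18 CPM in Myodin castrated boar 8 and 0.21 CPM in control 15 and between 3.11 and 16.04 CPM in the other 9 pigs. THEM5, a thioesterase of fatty acyl-CoA, was below the count filter, with 7, 67, 22, 31 and 17 counts with Myodin and 0, 2, 2, 0, 4 and 0 without. Its groups did not overlap, and without the filter it had a log2 fold change of 4.19 and an adjusted p by edgeR of 0.00908. GLYATL2 was also below the filter, with 8, 8, 6, 6 and 0 counts against 3, 2, 3, 3, 3 and 2.

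With Sustanon, set against the same 6 controls, the panel's median log2 fold change was 1.27, 452 genes had an adjusted p under 0.05 by edgeR (5.54%), and 158 genes (1.94%) were DEGs, 101 of them higher (1.24%) and 57 lower (0.699%). The direct test of Myodin against Sustanon compared different doses and products, so compound and dose cannot be told apart. It gave 196 genes with an adjusted p under 0.05 by edgeR (2.4%) and 83 DEGs (1.02%), 30 higher (0.368%) and 53 lower (0.65%) with Myodin. Leaving out 1 library moved the 196 genes to between 46, without Myodin sow 11, and 437, without Sustanon castrated boar 1, and the DEGs to between 31, without Myodin sow 11, and 147, without Sustanon castrated boar 3. A move of over 1.5 times in the 196 genes came with each Sustanon library left out in turn and with each Myodin sow. The panel was chosen for how it separated these same Sustanon-treated pigs. Its median with Sustanon and the differences of its members from Sustanon are therefore not independent evidence. In the panel MAPK4 was lower with Myodin than with Sustanon (log2 difference -1.83, SE 0.37, adjusted p 0.0118), and ASB4 (adjusted p 0.0149), CACNA1H (-1.90, adjusted p 0.0134) and DHRS4 (-1.01, adjusted p 0.0498) were lower too. So were TERF2 (-0.54, adjusted p 0.049), DHDH (-0.61, adjusted p 0.0361) and B3GNT8 (-0.75, adjusted p 0.0355). TINAG (2.99, adjusted p 0.0085), PLB1 (2.97, adjusted p 0.0361) and DUOX1 (2.504, adjusted p 0.0458) were higher with Myodin. For KCNB2 the difference was -0.27 (SE 0.29, adjusted p 0.652).

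Outside the panel, PTPMT1, the leading gene with Myodin, had a log2 fold change of 0.84 with Sustanon against the same controls, and the preparations differed by 0.23 (SE 0.17, adjusted p by edgeR 0.469). SLC1A4 was higher with Myodin than with Sustanon (2.06, adjusted p 0.000565), and so was DUOXA2, the maturation factor of the dual oxidase DUOX2 (2.86, adjusted p 0.000565). Against the shared controls SLC1A4 was at 0.998 with Myodin and -1.06 with Sustanon. DUOXA2 was at 0.61 with Myodin (adjusted p by edgeR 0.547) and -2.25 with Sustanon (adjusted p by edgeR 0.00161). FKBP5 (-2.07, adjusted p 0.00284) and ZBTB16 (-2.37, adjusted p 0.0107) were lower with Myodin than with Sustanon. LPIN2 (-1.22, adjusted p 0.0118) and SOAT2 (-1.59, adjusted p 0.0107) were lower as well. Set against the shared controls, FKBP5 was at -0.96 with Myodin and 1.11 with Sustanon, and ZBTB16 at -1.53 and 0.83. LPIN2 was at -0.98 with Myodin and 0.24 with Sustanon, and SOAT2 at 0.88 and 2.47. HSD17B2 was 2.58 higher with Myodin than with Sustanon (adjusted p 0.0692), having log2 fold changes of -2.03 with Myodin and -4.61 with Sustanon against the shared controls. ARG1 had log2 fold changes of -0.94 with Myodin and -0.86 with Sustanon, and the direct difference was -0.079 (SE 0.22).

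**Figure D5:**
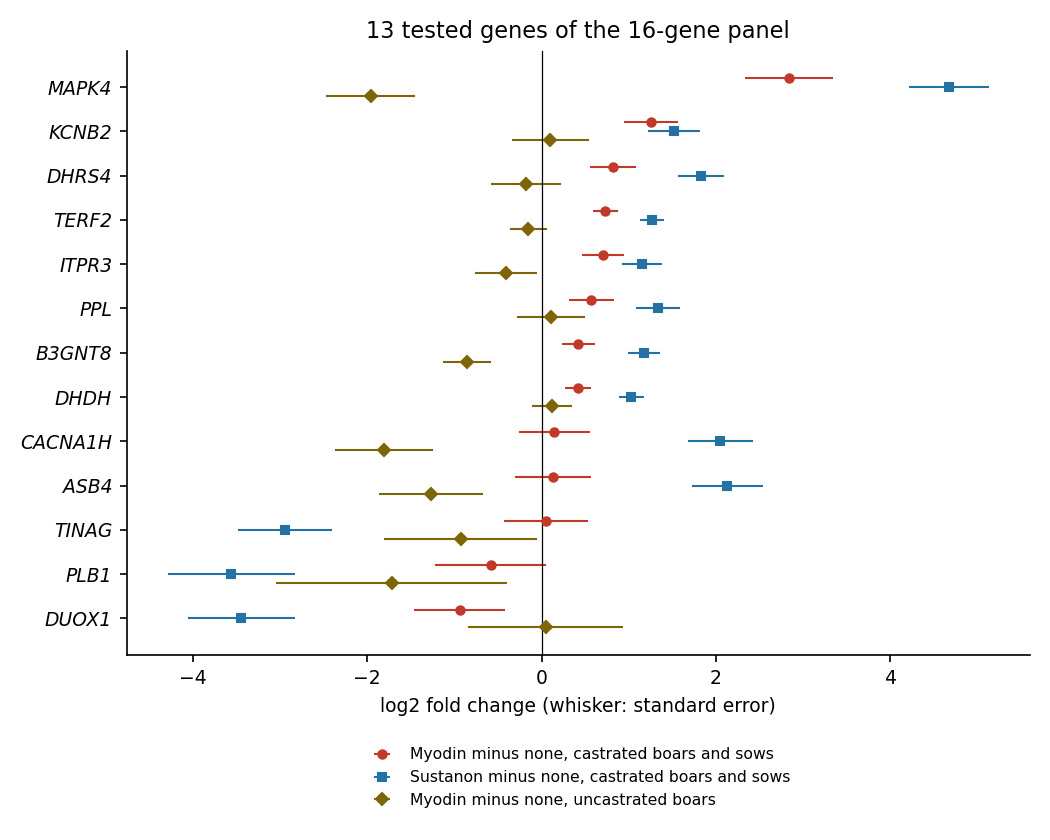
Log2 fold changes with their standard errors of the 13 tested panel genes for Myodin and for Sustanon against the shared untreated castrated boars and sows, and for Myodin against no treatment in uncastrated boars. MAPK4 is at 2.84 with Myodin and at 4.67 with Sustanon, and at -1.96 with Myodin in uncastrated boars.

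In uncastrated boars, 3 with Myodin against 2 without, the response differed from that of castrated boars and sows in 8 genes by edgeR (adjusted p under 0.05, 0.0981%), 7 of them with the lower (0.0858%) and 1 with the higher response (0.0123%) in the uncastrated boars. MAPK4 had 1.38, 4.99 and 1.06 CPM with Myodin and 12.02 and 7.12 CPM without in uncastrated boars, a log2 fold change of -1.96 against 2.84 in castrated boars and sows (difference -4.80, SE 0.72, adjusted p 0.00678). The untreated uncastrated boars were thus above all Myodin-treated pigs. PTPMT1 was also lower with Myodin in uncastrated boars, with 40.4, 24.3 and 29.5 CPM against 62.2 and 44.4 CPM (difference -1.84, SE 0.30, adjusted p 0.0117). TMEM63B (-1.15, adjusted p 0.0124), PARVB (-3.43, adjusted p 0.0228) and ATF5, a transcription factor of the stress response (-1.03, adjusted p 0.0476), were the other named genes with a lower response. UBE2L6, a conjugating enzyme of ISG15, had the higher response (difference 3.90, adjusted p 0.0476), with 9.36, 41.1 and 122 CPM with Myodin and 4.81 and 7.63 CPM without in uncastrated boars. The count moved with single uncastrated boars, from 8 to 206 without Myodin boar 22, 2 without Myodin boar 23, 1 without Myodin boar 24, 1 without control 25 and 4 without control 27.

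The response to Myodin was not found by edgeR to differ between castrated boars and sows in any gene (0 with an adjusted p under 0.05, smallest 0.245, and 793 at an unadjusted p under 0.05, 9.72%), and DESeq2 gave 24. Within castrated boars alone (2 against 3, 759 genes at an unadjusted p under 0.05, 9.3%) and sows alone (3 against 3, 921 genes, 11.3%) edgeR called 0 genes. The log2 fold changes of the 7 called genes, whose sign could not differ between the labelled sexes because the groups did not overlap, were as follows in castrated boars and in sows: PTPMT1 (1.29 and 0.91), MAPK4 (3.22 and 2.56), TERF2 (0.74 and 0.75), MAP7D1 (0.74 and 0.55), TMEM63B (0.46 and 0.70), TMEM87A (-0.45 and -0.51) and HELB (-0.46 and -0.77). The matrix gene TNC (5.00), the smooth muscle gene CNN1 (4.27) and the growth factor TGFB3 (3.14) had the largest positive differences in response, castrated boars minus sows, among the named genes, all with an adjusted p of 0.245. These genes were highest in Myodin castrated boar 9, and TGFB3 had 40.9 CPM there against 7.83 CPM in the other treated castrated boar. The differences came from both labelled sexes. Log2 fold changes in castrated boars were 2.79 for TNC, 2.22 for CNN1 and 1.83 for TGFB3, and in sows -2.21, -2.05 and -1.32. TGFB3 had 22.3 and 24.7 CPM in untreated sows 16 and 17, against 8.57 CPM in untreated sow 18. Since 3 of the 6 controls went against their labelled sex by KDM5D, labelled sex cannot be equated with sex in these values.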

How the data were processed

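Members and gene lists were chosen with earlier results of these data known. The authors prepared stranded poly-A libraries, aligned reads with STAR 2.5 to Sscrofa11.1 per the labels and the submitters' processing notes, and deposited raw counts per gene (13463 genes, 3779 without a symbol) and log2(TPM + 1). The counter is not given in the sources used here, so genes with close relatives (DHRS4, CYP1A1, FMO5, GSTA1, IFITM3) are uncertain. Counts were tested with edgeR 4.0.16 in R 4.3.3, two-sided: filterByExpr over the 11 libraries, TMM, and a quasi-likelihood fit of all 24 libraries in 6 groups (treatment, with or without testes). Groups were treatment by labelled sex for the difference in response between the labelled sexes. P-values were adjusted by Benjamini-Hochberg over 8159 genes. A DEG has an adjusted p under 0.05 and a log2 fold change of at least 1 in size. An adjusted p without a named tool is edgeR's. CPM use TMM. The authors named DESeq2; DESeq2 1.42.0 and limma 3.58.1 (deposited log2 values, pseudocount 1) were alternatives.

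Named genes are DEGs whose mean log2 CPM reaches 1, the 12 genes of smallest p in each direction, the panel, up to 4 members of each list at an unadjusted p under 0.05 (otherwise 2 of the highest level), steroid receptors, and the 5 of smallest p in each direction for each difference; some genes, 1 of the panel among them, are not reported here. Coordinates are those of RefSeq genes on Sscrofa11.1 (106 of 111 matched). The primer sequences are the study's. Each library is a separate pig. With 200 of 8159 genes changed in simulated counts of this comparison, edgeR recovered 88% at 2-fold and 97% at 4-fold (2.63% of calls wrong, 0 calls with nothing changed). Of DESeq2's calls there 8.7% were wrong, above the nominal level of 0.05, and of limma's 3.76%. The simulation ran limma on log2 CPM, so its share does not cover limma on the deposited log2(TPM + 1). Libraries of 9492860 to 14017276 counts limit low genes such as MAPK4. Real-Time PCR and serum data were not used here.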

Additional observations from a re-analysis of the deposited data

Results flagged for a closer look

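In 8 of the 176 groups of values looked at (the named genes and the library measures, in treated and untreated pigs), 1 pig stood far from the rest by Dixon's test, which chance does in about 1 of 20 groups. Without treatment, ATP5F1D was at 59.0 CPM in sow 18 against 84.0 to 103 CPM in the other controls. Castrated boar 15 was lowest in DHRS4 (369 against 489 to 520.4 CPM) and PLB1 (0.21 against 5.54 to 16.04 CPM) and highest in SERPINA1 (3457 against 2310 to 2636 CPM). Sow 16 was highest in IGF2R (148 against 100.4 to 112 CPM). These 3 pigs are the ones whose KDM5D count goes against the label. With Myodin, sow 10 was lowest in CDKN3 (5.25 against 6.46 to 6.85 CPM) and highest in PLG (5498 against 3603 to 4046 CPM), and castrated boar 9 was lowest in SULT2A1 (655 against 1137 to 1393 CPM).

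By the test of the difference itself (edgeR, adjusted p under 0.05), the response of uncastrated boars minus that of castrated boars and sows was -4.80 on the log2 scale for MAPK4, -1.84 for PTPMT1, -1.15 for TMEM63B, -3.43 for PARVB, -1.03 for ATF5 and 3.90 for UBE2L6. ENSSSCG00000038557 (-6.94) and ENSSSCG00000013900 (-1.07) have no symbol in the deposited table. With 3 treated and 2 untreated uncastrated boars, single pigs move this count from 1 to 206.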

How the results depend on the processing

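No paired analysis was possible because each animal number belongs to 1 pig and no number is shared between groups. The 2 DEGs of Myodin became 25 with DESeq2, 9 with the 11 libraries alone, 7 with labelled sex as a covariate, 6 with limma, 7 without a fold change threshold and 82 at an unadjusted p, and 0 without control libraries 15, 16 and 18, 0 without library 15 and 0 with uncastrated boars included. Leaving out each replicate gave 0 to 7. The 843 genes at an unadjusted p under 0.05 became 491 without libraries 15, 16 and 18. The 8 genes whose response differed in uncastrated boars, by adjusted p alone, became 92 with DESeq2 and 3 without these libraries, and 1 to 206 leaving out each replicate. The 83 DEGs of Myodin against Sustanon became 137 with DESeq2 and 31 to 147 leaving out each replicate. The 0 genes whose response differed by labelled sex, by adjusted p alone, became 24 with DESeq2, and 0 to 6 leaving out each replicate. The cause of these shifts was not tested. RLE normalization and no count filter left the count of DEGs at 2 and 3.

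Signs turned in genes near 0 or with uncastrated boars included. With these included, log2 fold changes were -0.39 for MAPK4, 0.37 for IFI6, 0.0019 for RSAD2, -0.44 for ASB4, -0.0092 for B3GNT8, -0.65 for CACNA1H, -0.0061 for IGFALS, 0.038 for PLG and -0.23 for TINAG. Without libraries 15, 16 and 18 they were -0.15 for ASB4, 0.053 for IGF2R and -0.47 for TINAG. TINAG was at -0.12 without library 15 and -0.010 with labelled sex as a covariate. Leaving out each replicate gave ranges that crossed 0, of -0.36 to 0.31 for ASB4, -0.087 to 0.32 for HSP90B1, -0.053 to 0.080 for IGF2R, -0.045 to 0.28 for IGFALS, -0.0053 to 0.086 for NR3C1, -0.17 to 0.060 for PLG and -0.23 to 0.44 for TINAG.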
